A study of Mus musculus with 6 samples.

Results

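The enzymes that attach glutathione, glucuronic acid or sulfate to small molecules were examined in mouse liver with and without SHP, an atypical nuclear receptor that Nr0b2 encodes. Members were the rows of the deposited gene table whose name belongs to the soluble or microsomal glutathione transferases (Gst, Mgst), the UDP-glucuronosyltransferases (Ugt1 to Ugt3) or the sulfotransferases (Sult1 to Sult5), and whose 6 raw count cells were filled. Of 47 matching names, 40 had filled counts, out of 19594 genes with filled counts in all. They comprise 22 glutathione transferases, 11 UDP-glucuronosyltransferases and 7 sulfotransferases. The 7 names without counts, Gstt4, Mgst2, Ugt2a1, Sult1c1, Sult2b1, Sult3a1 and Sult4a1, were not analysed here.

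The study sequenced liver RNA from male C57BL6 mice aged 2 months in 6 libraries, 3 labelled wild type and 3 labelled SHP -/-. RNA was enriched for its 5′ cap with a high-affinity form of the cap-binding protein EIF4E before sequencing on an Illumina GAII, with 36 cycles from each end and 3 barcoded samples in a lane. The knockout is not stated to be limited to a cell type, and no source used here names the deleted part of the gene, the litters or the samples of each lane, so genotype and lane cannot be told apart. The p-values below therefore measure the spread between these samples only.

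Conjugation is the step of detoxification in which a transferase joins a bulky, water-soluble group to a drug, hormone, bile acid or reactive metabolite. Glutathione transferases use glutathione, UDP-glucuronosyltransferases of the endoplasmic reticulum use UDP-glucuronic acid, and cytosolic sulfotransferases use the sulfate donor PAPS; the products leave the hepatocyte through ABC transporters into bile or blood. The liver is the main site of all 3 reactions, and each family arose by repeated gene duplication, so members often lie side by side and share stretches of sequence.

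The Ugt2b genes on chromosome 5 show this duplication. Bases before their start sites are printed here because a short stretch recurs in members that passed the test and in members that did not. Outside that stretch the resemblance varies, and Ugt2b1 is less like Ugt2b5 than Ugt2b37 is. Promoter entries from RefSeq (build GRCm38.p6) were found for 36 of the 40 members. Each line below gives the 110 bases before the annotated start, 5′ to 3′ on the gene's strand; capitals mark a palindrome, GTTANNNNNTAAC, in which N is any base.
Ugt2b5 (chr5:87140341-87140450, minus strand): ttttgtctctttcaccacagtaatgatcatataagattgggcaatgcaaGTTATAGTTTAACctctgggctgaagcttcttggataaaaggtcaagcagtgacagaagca
Ugt2b36 (chr5:87092556-87092665, minus strand): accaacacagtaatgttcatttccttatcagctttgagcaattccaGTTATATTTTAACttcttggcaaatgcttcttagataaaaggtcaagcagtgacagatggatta
Ugt2b35 (chr5:87000750-87000859, plus strand): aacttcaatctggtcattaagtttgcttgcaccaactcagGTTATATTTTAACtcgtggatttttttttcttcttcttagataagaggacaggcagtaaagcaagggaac
Ugt2b37 (chr5:87254789-87254898, minus strand): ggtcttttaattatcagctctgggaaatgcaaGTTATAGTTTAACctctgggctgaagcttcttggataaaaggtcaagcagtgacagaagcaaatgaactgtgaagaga
Ugt2b1 (chr5:86926504-86926613, minus strand): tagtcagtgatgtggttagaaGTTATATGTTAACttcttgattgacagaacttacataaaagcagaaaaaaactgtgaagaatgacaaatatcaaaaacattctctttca

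The first 3 of these genes were lower in the knockout, while Ugt2b37 and Ugt2b1 did not pass the test. The palindrome was found in the 250 bases before the start of all 7 Ugt2b members, with its first base 61 to 89 bases before the start, and of Ugt3a1, 130 bases before it. That is 8 of the 46 promoter windows of the members (17.4%), against 101 of 32851 windows of the same length in the whole table (0.307%), searched on both strands. The letters were chosen after these sequences were seen, and a match is a description of the letters only. Of the 8 windows, 7 belong to the duplicated Ugt2b genes, so they are not independent. The contrast with 0.307% is thus no test of enrichment. Other motifs were searched in the same windows. Apart from the shorter HNF1 motif (13.0% of member windows against 6.43% of all), each was less frequent in the members. The LRH-1 site, for example, gave 0.0% against 1.33%, and the AHR core 17.4% against 28.2%. The palindrome was present in Ugt2b members that fell and in those that did not pass the test.

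Depth was 4494353 to 7225842 counts per library, of which members took 1.02% to 1.17%. Levels are CPM, the count relative to the scaled library size, and differences are fitted log2 values, knockout minus wild type, from limma voom over the 11794 genes above a low-count limit; a gene passed when its Benjamini-Hochberg adjusted p over all of them was under 0.05. Mitochondrially encoded genes took 10.2% to 10.3% of counts in the wild type and 5.66% to 7.10% in the knockout; leaving these genes out of totals and fit gave the same counts of members past the threshold in each class. All 10 hepatocyte markers passed the low-count limit. Their summed level was 77780 to 100700 CPM in the wild type and 87280 to 92920 CPM in the knockout. Most of that sum came from Alb, so it says little about the other markers. In bulk liver, fewer cells of a type and less RNA per cell cannot be told apart.

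The targeted gene was lower but still counted in the knockout. Nr0b2 stood at 17.7, 12.3 and 13.5 CPM in wild-type replicates 1, 2 and 3 and at 6.62, 7.07 and 10.3 CPM in the knockout, so the groups did not overlap. That is −0.81 in log2 (SE 0.249, adjusted p = 0.0443 by limma voom). It kept its sign but missed the threshold without any 1 of the libraries other than knockout replicate 3, with adjusted p from 0.0524 to 0.123. A count over the whole gene does not show which part was deleted.

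The 3 enzyme classes gave different counts. Of the 11 UDP-glucuronosyltransferases, all of which were tested, 6 were lower (54.5%), 0 were higher and 5 did not pass, with a median log2 difference of −0.50. Among the 19 tested glutathione transferases, 2 were lower, 1 was higher and 16 did not pass, with a median of −0.09. Of 5 tested sulfotransferases, 1 was lower, 1 higher and 3 did not pass, with a median of −0.46. Over all genes tested, 14.5% passed in either direction, 6.94% lower and 7.58% higher, and the median was −0.0064. The glutathione transferases (15.8% past the threshold) were thus near the background, while the UDP-glucuronosyltransferases held more lower calls than it; no test over a class was made, because the members were chosen with earlier results known.

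**Figure D1:**
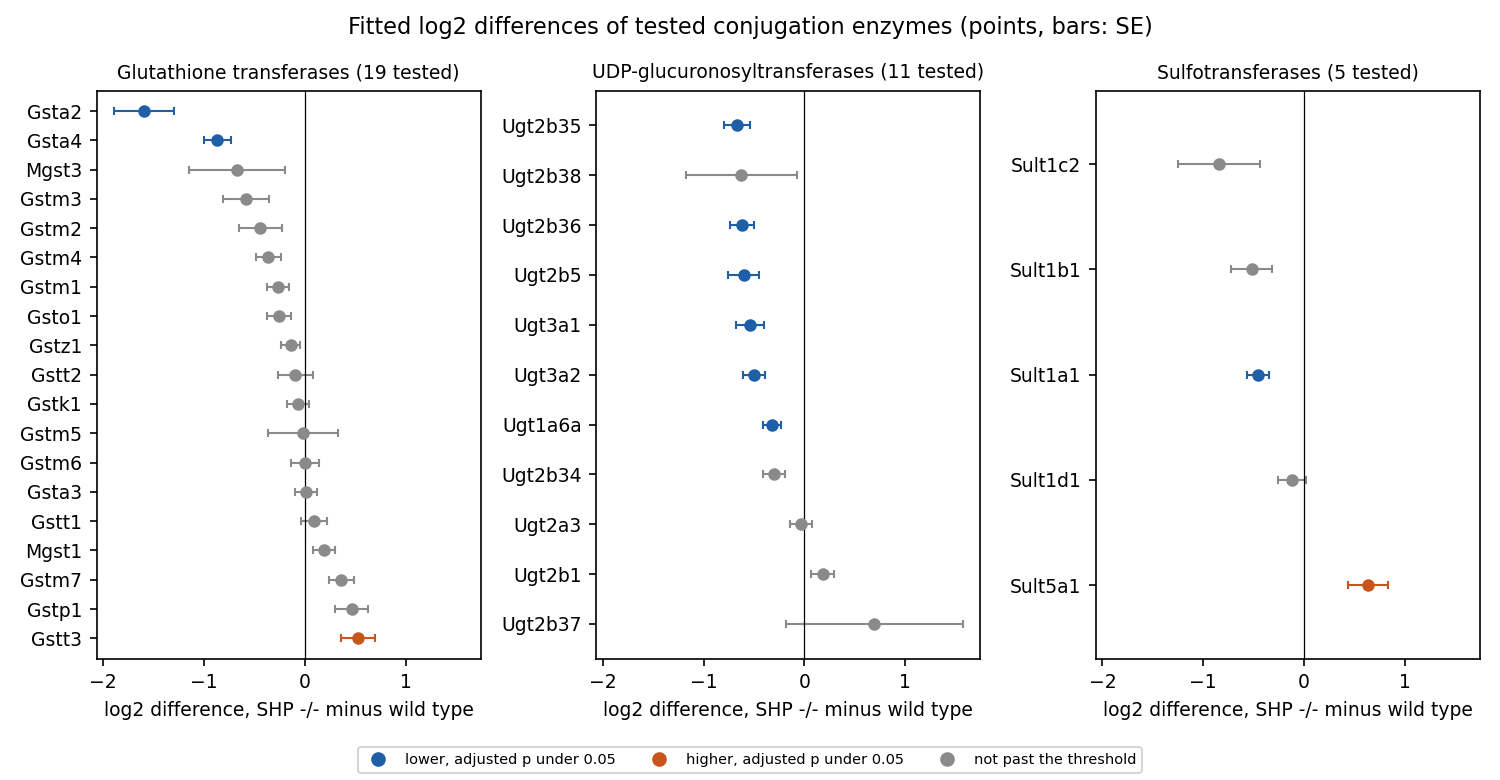
Fitted log2 differences (x axis, SHP -/- minus wild type) of the 35 tested members, one panel per class; points are estimates, bars are standard errors, and colours give the call at an adjusted p under 0.05. The 6 called UDP-glucuronosyltransferases lie between −0.67 and −0.33, while the glutathione transferases lie on both sides of 0.

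The share of calls rises with abundance, and the same order held at higher levels. Among genes with a mean of at least 10 CPM, 19.4% passed and 9.35% were lower. At that level 6 of 9 UDP-glucuronosyltransferases were lower, 1 of 16 glutathione transferases was lower and 1 higher, and 1 of 4 sulfotransferases was lower and 1 higher. By the CPM of single libraries, 20 of the 35 tested members had groups that did not overlap, 17 of them lower in the knockout. The shares over all genes were 35.1% in either direction and 17.9% lower. The 17 lower members were 7 of 19 tested glutathione transferases, 7 of 11 UDP-glucuronosyltransferases and 3 of 5 sulfotransferases. By this measure each class, the glutathione transferases included, held a larger share than the 17.9% of all genes. The counts rest on single libraries: the lower UDP-glucuronosyltransferases numbered 3 without wild-type replicate 3 and 3 without knockout replicate 1, and calls over all genes fell from 1713 to 629 and 1070 in those fits.

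Summed over its members, the classes also differed from each other. The 11 UDP-glucuronosyltransferases together held 4080, 5180 and 4623 CPM in wild-type replicates 1, 2 and 3 and 3785, 3834 and 3607 CPM in the knockout, every knockout library being below every wild-type one. The sulfotransferases together held 452, 361 and 398 CPM in the wild type and 325, 357 and 324 CPM in the knockout, which do not overlap but nearly touch. The glutathione transferases together held 5881, 6523 and 5532 CPM in the wild type and 6392, 6170 and 6191 CPM in the knockout, and the groups overlapped. Mgst1, Ugt1a6a and Sult1a1 were the largest contributors to their classes, so the sums follow the abundant members.

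**Figure D2:**
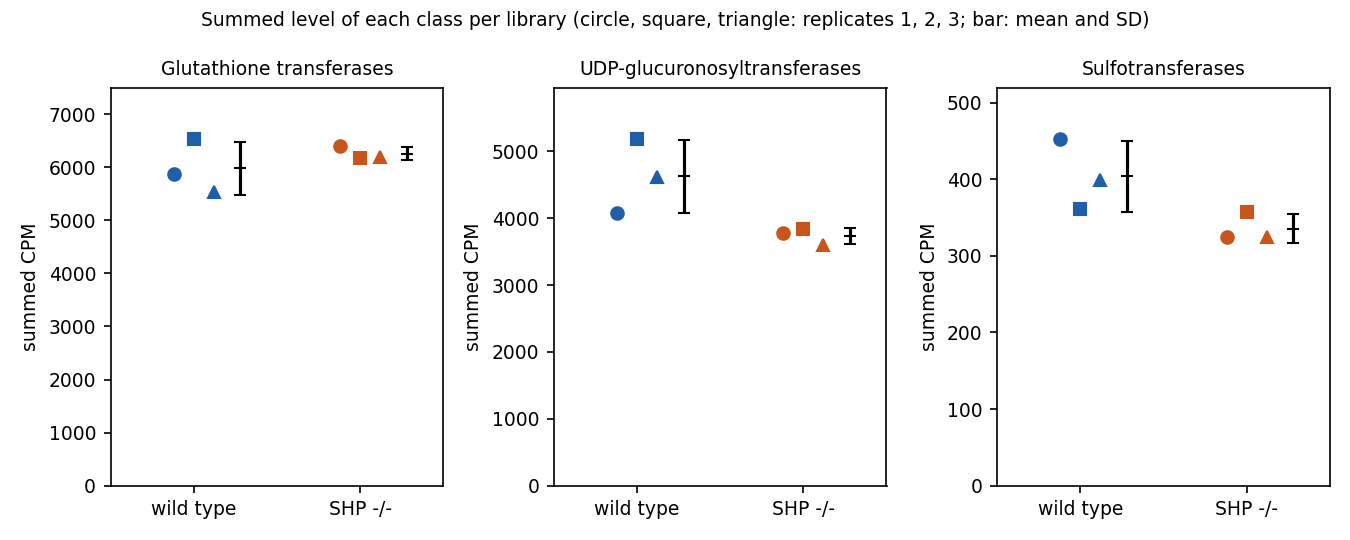
Summed CPM (y axis, linear from 0) of the measured members of each class in each library, with the mean and SD of 3 libraries beside the points. The knockout libraries sit below the wild-type ones in the UDP-glucuronosyltransferase and sulfotransferase panels and among them in the glutathione transferase panel.

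Levels per length were compared as CPM per kilobase of the table's exonic length in the wild type. Apart from the Ugt1a6a row, the most abundant members were glutathione transferases. Mgst1, the microsomal enzyme, stood at 1068 ± 156 (SD, n = 3) and Gsta3, an alpha-class enzyme, at 1058 ± 128, which do not differ beyond their spread. They were followed by the pi-class Gstp1 at 602 ± 90.2 and by Gstz1, which also isomerises maleylacetoacetate in tyrosine breakdown, at 417 ± 24.8. Ugt2b36 (312 ± 49.4), Gstm1 (293 ± 14.5), Ugt2b5 (290.0 ± 79.3) and Ugt2b1 (279 ± 33) came next and could not be ordered within their spread. The highest sulfotransferase was Sult1a1 at 136 ± 14.9. The Ugt1a6a row gave 100 ± 3.19 but cannot be ranked this way. Its 12741 exonic bases lie in a span that holds alternative first exons.

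Among the UDP-glucuronosyltransferases, the genes that fell came from all 3 families. Of the Ugt2b family, whose enzymes act on steroids, bile acids and drugs, Ugt2b36, Ugt2b35 and Ugt2b5 were lower by 34.2% to 37.1%. Both members of the Ugt3a family, relatives that can use other sugar donors, were lower by 29.4% to 31.4%, and the Ugt1a6a row by 20.3%.

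Ugt2b36 (mm9, as for all gene coordinates below, chr5:87494952-87521580) stood at 539, 742 and 645 CPM in wild-type replicates 1, 2 and 3 and at 416, 431 and 399 CPM in the knockout. The knockout libraries were close together and all below the wild type, a log2 difference of −0.62 (SE 0.117, limma voom adjusted p = 0.00433). Ugt2b35 (chr5:87429885-87440699), its neighbour, stood at 158, 220.1 and 192 CPM against 106, 129 and 121 CPM, again without overlap (−0.67, SE 0.13, adjusted p = 0.00485). Both calls held without each library in turn.

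Ugt2b5 (chr5:87553981-87569365) stood at 420.0, 711 and 508 CPM in the wild type and at 338, 365 and 348 CPM in the knockout. The wild-type libraries were the more spread, and the groups did not overlap (−0.60, SE 0.152, limma voom adjusted p = 0.018). The call was lost without wild-type replicate 3 (adjusted p = 0.0653) and without knockout replicate 1 (0.0514). Of the 36-base windows in its transcripts, 51.7% also occur in another gene, most of them in Ugt2b38, so reads could be split between the copies and its level is uncertain to that extent; no source used here says how the authors counted such reads. Summed with Ugt2b37 and Ugt2b38, the 3 genes gave −0.56 (adjusted p = 0.0254). The other copies had means of only 8.41 and 6.79 CPM against 448 CPM for Ugt2b5. The sum thus largely repeats Ugt2b5 and does not address reads that the counting may have left out.

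Ugt3a2 (chr15:9265305-9300710) stood at 345, 424 and 381 CPM in the wild type and at 270.3, 287 and 253 CPM in the knockout, with no overlap (−0.50, SE 0.107, limma voom adjusted p = 0.00806, held without each library in turn). Ugt3a1 (chr15:9209584-9244787), next to it, stood at 53.2, 70.0 and 57.6 CPM against 39.3, 38.1 and 44.4 CPM (−0.54, SE 0.138, adjusted p = 0.0189). Its call was lost without wild-type replicate 2 or 3 or knockout replicate 1 or 2, with adjusted p from 0.057 to 0.068. Of its 36-base windows Ugt3a1 shares 13.7% with Ugt3a2, which shares 12.0% of its own with Ugt3a1, and their sum gave −0.51 (adjusted p = 0.00689). Most of that sum is Ugt3a2, at a mean of 327 CPM against 50.5 CPM for Ugt3a1.

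The Ugt1a6a row (chr1:89951963-90116577) was the only Ugt1a name in the table. It spans 164615 bases with 12741 exonic bases, a span that holds the alternative first exons of the Ugt1a locus, so it cannot be read as the single phenol-conjugating isoform of that name. Its levels were 1229, 1307 and 1289 CPM in the wild type and 1028, 1016 and 1005 CPM in the knockout, tight in both groups and without overlap (−0.33, SE 0.0895, limma voom adjusted p = 0.0271). Fits with 5 libraries kept the difference between −0.35 and −0.30 but passed only without wild-type replicate 1, since adjusted p was 0.0631 to 0.099 without each of the others. In the authors' deposited table its adjusted p score reads as 0.216.

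Abundant members of the same family did not pass. Ugt2b1 stood at 623, 788 and 741 CPM in the wild type and 854, 853 and 726 CPM in the knockout, which overlap (0.18, 95% interval −0.06 to 0.42). Ugt2a3 stood at 283, 360.3 and 346 CPM against 334, 319 and 310.1 CPM (−0.03, interval −0.27 to 0.20). Ugt2b34 was below the wild type in every knockout library, at 376, 365 and 398 CPM against 421, 549 and 445 CPM, but missed the threshold (−0.30, interval −0.54 to −0.06, limma voom adjusted p = 0.0876). Along the chromosome 5 cluster, the 3 genes that fell, Ugt2b35, Ugt2b36 and Ugt2b5, were consecutive members, with Ugt2b1 on one side and Ugt2b37 on the other.

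**Figure D3:**
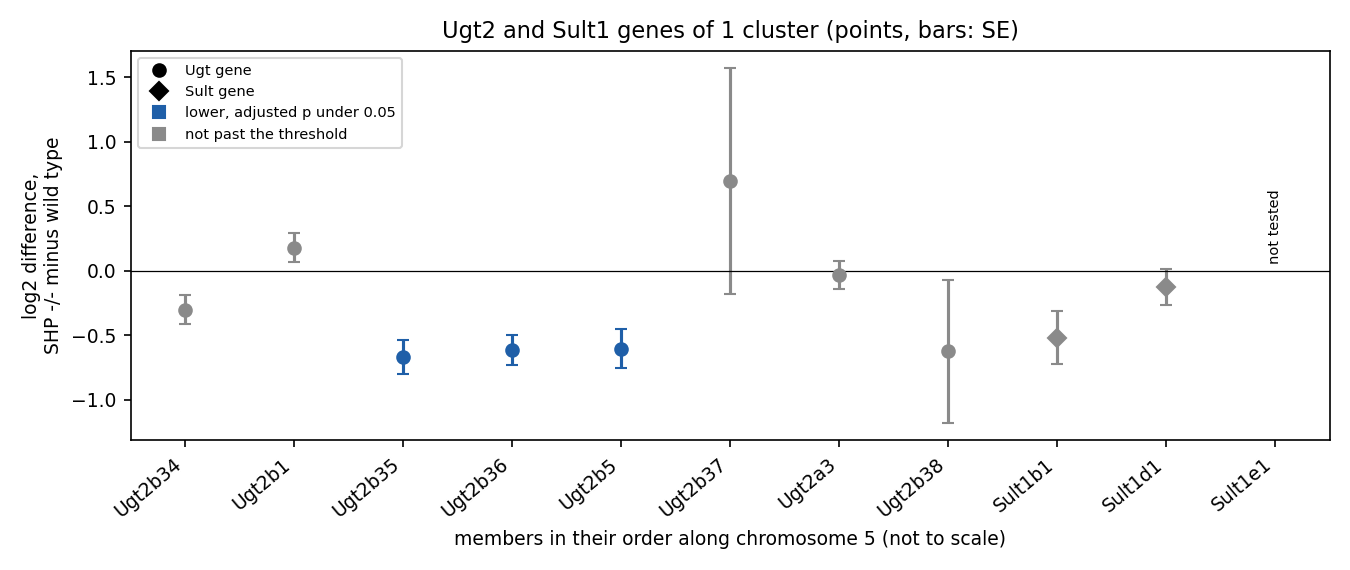
Fitted log2 differences (y axis, SHP -/- minus wild type, bars SE) of the members on chromosome 5 in their order along it (x axis, not to scale), circles for Ugt2 and diamonds for Sult1 genes. The called genes are 3 neighbours between −0.67 and −0.60, and the wide bars belong to Ugt2b37 and Ugt2b38, the Ugt2 members of lowest level.

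Ugt2b37 differed among the knockout animals. It stood at 4.09, 3.74 and 3.81 CPM in the wild type and at 16.9, 20.4 and 1.48 CPM in the knockout: 2 knockout libraries were above all wild-type libraries and the third was below them. The fitted difference was 0.69 (interval −1.19 to 2.58, limma voom adjusted p = 0.635), 2.24 without knockout replicate 3 (adjusted p = 2.3e-04) and −0.05 without knockout replicate 2 (adjusted p = 0.973). In the authors' deposited table, where the 3 libraries of a group are pooled, its log2 ratio is 1.70, with an adjusted p score that reads as 4.0e-05. Ugt2b38, at 3.92, 5.61 and 12.9 CPM against 6.85, 9.62 and 1.88 CPM, was also lowest in knockout replicate 3 and did not pass (interval −1.81 to 0.56). Ugt2b37 shares 29.7% and Ugt2b38 48.7% of 36-base windows with other genes, mostly Ugt2b5, which had no such spread in the knockout.

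**Figure D4:**
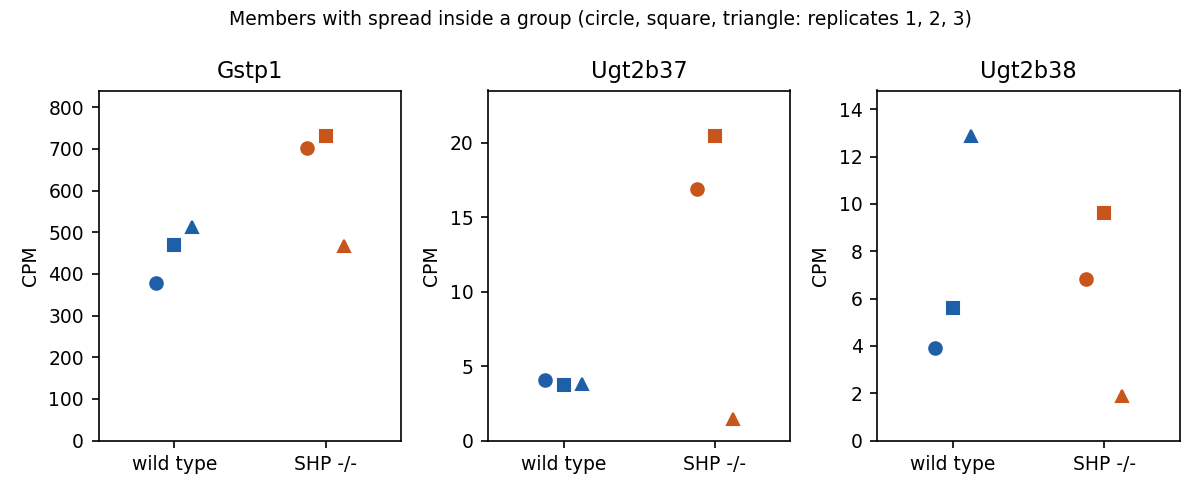
CPM (y axis, linear from 0) of Gstp1, Ugt2b37 and Ugt2b38 in each library, with circle, square and triangle for replicates 1, 2 and 3. Knockout replicate 3 is the lowest knockout library in all 3 panels, and for Ugt2b37 and Ugt2b38 the lowest of all 6.

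Among the glutathione transferases, the alpha class held both lower calls and also an abundant member with similar levels in both groups. Gsta4 (chr9:78039823-78057155), which conjugates the lipid peroxidation product 4-hydroxynonenal, stood at 88.5, 116 and 96.6 CPM in wild-type replicates 1, 2 and 3 and at 50.7, 52.4 and 59.3 CPM in the knockout. It fell by 45.2% with no overlap (−0.87, SE 0.13, limma voom adjusted p = 0.00105). None of its 36-base windows occurs in another gene.

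Gsta2 (chr9:78178825-78203595), of the same class, was low, at 10.9, 13.1 and 9.85 CPM in the wild type and 4.11, 2.75 and 4.03 CPM in the knockout, and gave the most negative fitted difference among the members (−1.59, SE 0.298, limma voom adjusted p = 0.00393). Of its windows 57.8% occur in another gene, among them Gsta1 (42.1%), Gm10639 (40.4%) and Gm3776 (34.2%). Gsta1 had 0 or 1 count in every library, so its sum with Gsta2 (−1.60) is no check on shared reads. Gm10639 and Gm3776 were not summed with Gsta2. The calls of Gsta4 and Gsta2 held without each library in turn and under every other setting tried. Gsta3 stood at 1547, 1603 and 1271 CPM against 1489, 1376 and 1573 CPM, a difference of 0.01 (interval −0.22 to 0.25).

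Gstt3 (chr10:75236860-75244159), of the theta class, was the 1 glutathione transferase called higher. It stood at 53.6, 52.4 and 35.4 CPM in the wild type and 61.4, 59.7 and 77.3 CPM in the knockout, without overlap (0.53, SE 0.167, limma voom adjusted p = 0.0487). This call was close to the threshold: it was lost without wild-type replicate 2 or 3 or knockout replicate 1 or 3 (adjusted p 0.058 to 0.234), and it passed in 3 of 7 other settings. The difference was 0.32 without wild-type replicate 3, the lowest library. Its theta-class relatives Gstt1 (0.09, interval −0.19 to 0.36) and Gstt2 (−0.09, interval −0.46 to 0.28) did not pass.

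Gstp1 (chr19:4035411-4037921), an abundant pi-class enzyme of male mouse liver, did not pass but differed among the knockout libraries. It stood at 379, 469 and 512 CPM in the wild type and 703, 731 and 468 CPM in the knockout, where replicate 3 lay within the wild-type range. The difference was 0.46 (interval 0.12 to 0.81, limma voom adjusted p = 0.0679), and 0.67 with adjusted p = 0.00443 without knockout replicate 3. In the authors' deposited table its adjusted p score reads as 0.0426. Gstp2 had at most 7 counts in a library, and 37.2% of the windows of Gstp1 are shared with other genes.

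Mgst1, a trimeric membrane enzyme and the member of highest CPM not corrected for length, stood at 1964, 2512 and 1974 CPM in the wild type and 2499, 2471 and 2314 CPM in the knockout, which overlap (0.18, interval −0.05 to 0.42). Gstz1 stood at 671, 655 and 598 CPM against 579, 571 and 590.4 CPM; the groups did not overlap, but the difference was −0.14 (interval −0.34 to 0.06).

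None of the 7 mu-class genes, which lie in tandem on chromosome 3, passed the limma voom test. Their differences ran from −0.59 for Gstm3 to 0.36 for Gstm7, and 4 of the 7 had an unadjusted p under 0.05, as did 3606 of all 11794 genes tested. Gstm1, the most abundant, stood at 423, 417 and 386 CPM against 356, 292 and 373 CPM (−0.27, interval −0.51 to −0.03). Gstm4 (−0.36, adjusted p = 0.0714) and Gstm7 (0.36, adjusted p = 0.0649) pointed in opposite directions without overlap between groups; without knockout replicate 3 Gstm4 passed (adjusted p = 0.0397) and without knockout replicate 2 Gstm7 passed (0.0454). Gstm3 and Gstm6 overlap by 11104 bases on the same strand, and their sum gave −0.06. Gstm6, at a mean of 124 CPM against 15.9 CPM for Gstm3, gave 0.0028 by itself. The sum thus mostly follows Gstm6 and says little about Gstm3. The kappa-class Gstk1 (−0.07), the omega-class Gsto1 (−0.26) and the microsomal Mgst3 (−0.67, interval −1.69 to 0.35) did not pass either.

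Among the sulfotransferases, Sult1a1 (chr7:133816379-133819946), the phenol sulfotransferase and the most abundant of the class, fell. It stood at 220.3, 189 and 179 CPM in the wild type and 133, 147 and 146 CPM in the knockout, without overlap (−0.46, SE 0.110, limma voom adjusted p = 0.0148). The call was lost only without knockout replicate 1 (adjusted p = 0.0601).

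Sult5a1 (chr8:125666747-125682215) was higher, at 19.8, 12.9 and 13.2 CPM in the wild type against 24.9, 24.9 and 21.5 CPM in the knockout (0.64, SE 0.195, limma voom adjusted p = 0.044). It was lost without wild-type replicate 2 or 3 or knockout replicate 1 or 2 (adjusted p 0.0932 to 0.192). All of its 15469 bases lie within the span of the Usp10 row on the opposite strand; Usp10 was more abundant, at 85.8 ± 2.79 and 96.5 ± 6.78 CPM (SD, n = 3 each), with a difference of 0.17 (adjusted p = 0.322). The Usp10 row is long (chr8:122434260-126869624) and has 9756 exonic bases, so a place within its span does not show overlap with its exons. Of the transcript windows of Sult5a1, 3.04% occur in another gene. Olfr906 shared the most (0.938%), and Usp10 was not among the listed genes that shared most. No source used here says whether the counting used strand, and an effect of Usp10 reads on the Sult5a1 counts was not tested. In the authors' deposited table the adjusted p score of Sult5a1 reads as 0.0634.

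The remaining sulfotransferases did not pass. Sult1d1, which acts on catecholamines, stood at 175, 129 and 176 CPM against 145, 168 and 128 CPM (−0.12, interval −0.42 to 0.18). Sult1b1, a thyroid hormone and phenol sulfotransferase, was lower in every knockout library, at 20.1, 13.7 and 24.4 CPM against 32.1, 25.6 and 26 CPM (−0.52, interval −0.96 to −0.08, limma voom adjusted p = 0.104; 0.0414 without knockout replicate 3). Sult1c2 was low, at 4.78, 4.57 and 3.65 CPM against 1.37, 2.36 and 3.22 CPM (−0.84, interval −1.71 to 0.03). The 5 remaining members were under the low-count limit, and their counts per library were 0 to 1 for Gsta1 and Sult2a2, 0 to 4 for Gsto2 and for the estrogen sulfotransferase Sult1e1, and 1 to 7 for Gstp2.

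**Figure D5:**
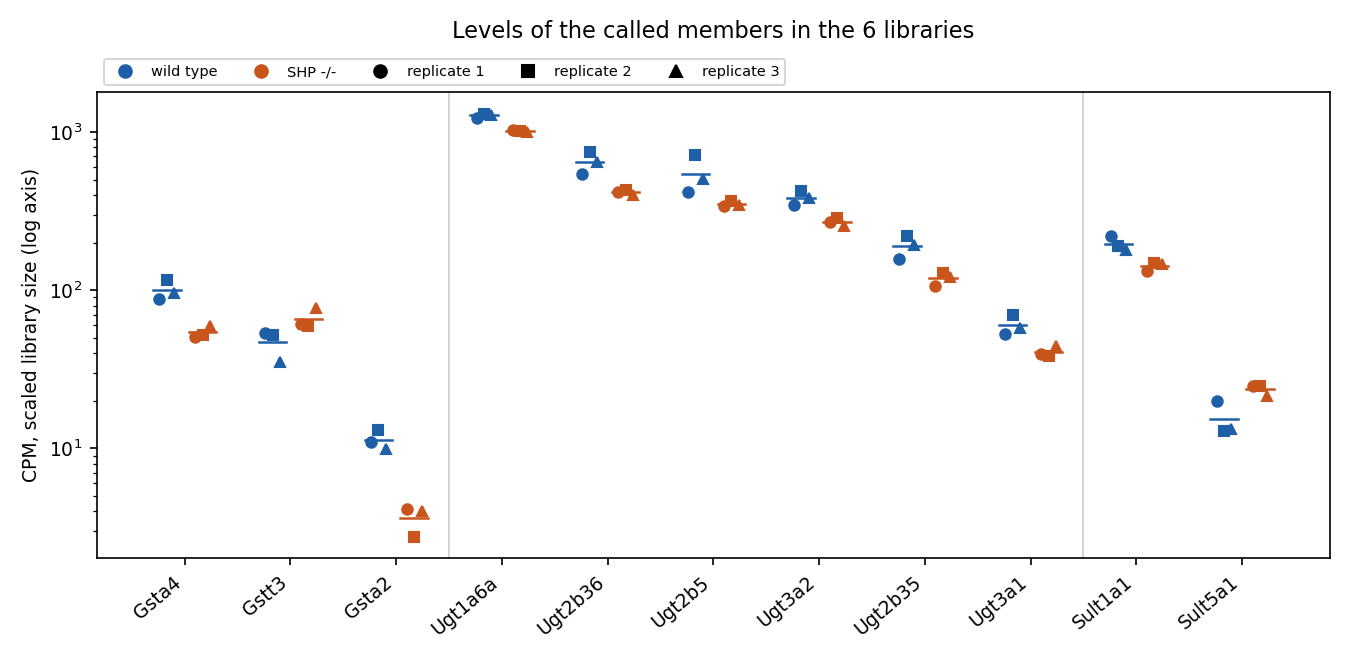
CPM (y axis, log scale) of the 11 members past the threshold in each library, wild type in blue and SHP -/- in orange, with a line at each group mean and symbols for the replicate number. In all 11 the groups do not overlap; 9 are lower in the knockout and 2, Gstt3 and Sult5a1, are higher.

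Genes that supply the 3 donors were read beside their transferases. Of 12 tested genes that make or move UDP-glucuronate or remove glucuronides, 4 were lower (33.3%, against 6.94% of all genes) and 0 higher. Ugp2, which makes UDP-glucose, stood at 289, 340.0 and 354 CPM in the wild type and 189, 222 and 269 CPM in the knockout (−0.54, limma voom adjusted p = 0.0159). Ugdh, which oxidises UDP-glucose to UDP-glucuronate, was named after its values were seen, and fell from 258 ± 30.4 to 183 ± 34.2 CPM (SD, n = 3 each, −0.51, adjusted p = 0.0244). Entpd4, a Golgi nucleotide hydrolase (−0.65, adjusted p = 0.0173), and Cryl1, a gulonate dehydrogenase downstream of glucuronate (−0.69, adjusted p = 0.0212), were the other two. Entpd5, the most abundant of the rest, gave −0.31 (interval −0.57 to −0.05). The count of 4 fell to 1 without wild-type replicate 2 or knockout replicate 1 or 3, and to 0 without wild-type replicate 3.

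Glutathione supply held 2 lower and 0 higher of 15 tested genes (13.3%), against 6.94% lower and 14.5% in either direction of all genes. Both lower genes encode subunits of the rate-limiting ligase. The modifier subunit gene Gclm stood at 253, 218 and 315 CPM in the wild type and 168, 189 and 186 CPM in the knockout (−0.52, limma voom adjusted p = 0.0173). The catalytic subunit gene Gclc stood at 457, 570.0 and 562 CPM against 363, 403 and 439 CPM (−0.39, adjusted p = 0.0354). Slc25a39, the mitochondrial glutathione carrier and the most abundant of the rest, gave 0.21 (interval −0.02 to 0.45). Of the 2 lower calls, 1 was left without wild-type replicate 2 or knockout replicate 2, and 0 without wild-type replicate 3 or knockout replicate 1.

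Of 13 tested genes for PAPS supply and sulfate removal, 1 was lower (7.69%, near the 6.94% of all genes) and 0 were higher. Papss1, one of the PAPS synthases, stood at 11.9, 16.8 and 12.5 CPM in the wild type and 4.57, 5.30 and 6.58 CPM in the knockout (−1.25, limma voom adjusted p = 0.00781). Papss2, the other synthase and the more abundant in counts, had mean levels of 279.7 and 263 CPM (−0.09, adjusted p = 0.647). The list gave 2 lower genes without wild-type replicate 1.

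Among 11 tested genes of conjugate export, 2 were higher and 0 lower (18.2%), against 7.58% higher and 14.5% in either direction of all genes. Abcc6 rose from 157 ± 23.1 to 219 ± 17.0 CPM (SD, n = 3 each, 0.48, limma voom adjusted p = 0.0162) and Abcc3, a basolateral exporter of glucuronides, from 321 ± 17.0 to 418 ± 48.1 CPM (0.38, adjusted p = 0.0325). Abcc2, the canalicular exporter and the most abundant of the list, gave −0.08 (adjusted p = 0.623). The count of higher genes was 1 without any other single library and 0 without wild-type replicate 3.

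Conjugating enzymes outside the 3 classes moved in both directions, with 3 higher and 4 lower of 16 tested, against 7.58% higher and 6.94% lower of all genes. The catechol methyltransferase gene, listed as Comt1, stood at 511, 607 and 529 CPM in the wild type and 954, 948 and 825 CPM in the knockout (0.73, limma voom adjusted p = 8.3e-04). The indolethylamine methyltransferase Inmt fell from 293 ± 59.1 to 134 ± 32.5 CPM (−1.13, adjusted p = 0.0011). The glycine methyltransferase Gnmt rose from 1656 ± 319 to 2711 ± 516 CPM (SD, n = 3 each, 0.71, adjusted p = 0.00769). Cml2, now called Nat8f2, was the most abundant of the rest (0.35, adjusted p = 0.0639). The 3 higher calls became 1 without wild-type replicate 3, and the 4 lower calls became 1 or 2 without wild-type replicate 2 or 3 or knockout replicate 1 or 2.

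Of 26 tested receptors and factors known to act on conjugation genes, 6 were higher and 2 lower, against 7.58% and 6.94% of all genes. Cebpa, a basic leucine zipper factor of hepatocytes, stood at 257, 209 and 252 CPM in the wild type and 478, 508 and 469.9 CPM in the knockout (1.02, limma voom adjusted p = 1.0e-04). Its relative Cebpb rose from 42.1 ± 7.05 to 91.0 ± 18 CPM (SD, n = 3 each, 1.09, adjusted p = 0.00106). Nr1i3, which encodes the xenobiotic receptor CAR, stood at 152, 142 and 138 CPM against 76.3, 63.4 and 108 CPM (−0.82, adjusted p = 0.00466). Hnf4a, the most abundant that did not pass, gave 0.14 (adjusted p = 0.371). The 6 higher calls became 3 without wild-type replicate 3, and the 2 lower calls became 1 without any library other than knockout replicate 2.

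Markers of other cell types were read beside these counts. Over all genes tested, limma voom called 7.58% higher and 6.94% lower. Of 11 macrophage markers 3 were higher (C1qa 0.73, Marco 1.07 and C1qc 0.64) and 0 lower. Differences were positive for 8 of the 11 and negative for 3. The list summed to 422 to 493 CPM in the wild type and 433 to 664 CPM in the knockout, so the groups overlapped. Of 9 endothelial markers 1, Lyve1, was higher by limma voom, while 7 of the 9 had negative differences and the list summed to 511 to 560 CPM in the wild type and 352 to 534 CPM in the knockout. Neither the 4 tested cholangiocyte nor the 9 stellate and matrix markers passed that test, and the latter summed to 323 to 372 CPM in the wild type and 192 to 392 CPM in the knockout. At an unadjusted p under 0.05 were 4 macrophage, 4 endothelial, 3 stellate and matrix and 0 cholangiocyte markers, against 3606 of all 11794 genes. The 1 tested pancreatic acinar marker, Cela1, was higher (0.97, adjusted p = 0.00949), and the 1 tested gut marker, Fabp2, was lower (−1.30, adjusted p = 3.2e-04). The other 4 acinar and 3 gut markers were under the low-count limit or had no filled counts. Each of these lists thus rests on 1 gene, which alone does not show a cell type. Hepatocyte markers gave 1 higher (Fgb) and 1 lower (Tat) of 10. Lymphocyte and neutrophil markers summed to at most 5.50 and 1.96 CPM in any library. The part of these cells in the results was not tested.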

How the data were processed

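Cap-enriched liver RNA of 3 wild-type and 3 SHP -/- mice was measured by RNA-seq. The submitters' processing notes name Novoalign 2.05.33 and the build mm9; how genes were counted, with or without strand, and what was done with reads that align in several places are not stated there. Deposited by the authors are raw read counts per Ensembl gene and library, RPKM values and a log2 ratio for pooled groups, and p and adjusted p scores, which were read as Phred-scaled p-values. Of low counts, from 1 to 19, 61.8% were even, so both ends of a pair appear to have been counted. The table has 33495 genes, of which 13901 have empty cells and were left out. Some lines of the table (4840) end early, so the count columns were not recorded as counts and limma 3.58.1 (voom) in R 4.3.3 replaced a count model.

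Scaling used trimmed means of M values. Genes entered the test with 1.83 CPM or more in at least 3 libraries and 15 counts or more in all, and 0.5 was added to each count. The design was genotype only, two-sided, with Benjamini-Hochberg adjustment over all 11794 genes; the script was tested on simulated data. 1 count is worth 0.134 to 0.228 CPM. Intervals of differences are 95% intervals from the same fit. Named genes are the members, Nr0b2 and, from each other list, up to 3 genes past the threshold by adjusted p and the most abundant of the rest; Ugdh and called cell type markers were named after their values were seen, and a result on another listed gene is not reported here. Members and lists were chosen with earlier results of these data known. Shared 36-base windows were counted in GENCODE vM21 transcripts, and promoters come from RefSeq (GRCm38.p6). The alternatives were other library scaling, no low-count filter, limma trend, robust moderation, a replicate block, mitochondrial genes left out, overlapping genes summed and each library left out; near copies summed, and all alternatives for the other lists, were chosen after seeing the data. Wild-type and knockout libraries of the same number did not deviate together (r from −0.0244 to −0.0187), so the numbers were not taken as pairs.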

Additional observations from a re-analysis of the deposited data

How the results depend on the processing

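With all 6 libraries, the counts of lower glutathione transferases, UDP-glucuronosyltransferases and sulfotransferases stayed within 1.5 times of 2, 6 and 1 under every other setting, near copies summed included (5 lower UDP-glucuronosyltransferases there, as the Ugt3a pair became 1 row). Higher glutathione transferases fell from 1 to 0 with no scaling, no low-count filter, limma trend or the replicate block, and higher sulfotransferases from 1 to 0 with no low-count filter. With the replicate block, a paired fit by replicate number that the labels do not show to be a pairing, higher UDP-glucuronosyltransferases went from 0 to 1, Ugt2b37 (1.67, adjusted p = 0.0343), and limma called 1779 genes in place of 1713. Nr0b2 missed the threshold with no scaling (−0.81, adjusted p = 0.0536), no low-count filter (−0.81, 0.0667) and the replicate block (−0.79, 0.0553). Conjugate export gave 1 lower gene by limma trend, other conjugating enzymes 5 higher with robust moderation, and regulators 1 lower with no scaling, median-of-ratios factors, no low-count filter or the replicate block. The causes were not tested.

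Leaving out 1 library at a time gave 353 to 818 higher and 276 to 783 lower genes over all, fits with fewer samples. Glutathione transferases gave 0 to 2 higher and 2 to 3 lower, UDP-glucuronosyltransferases 0 to 1 and 3 to 6, and sulfotransferases 0 to 1 and 0 to 2. The supply lists gave 0 higher each and 0 to 3 (glutathione), 0 to 4 (UDP-glucuronate) and 1 to 2 (PAPS) lower. Export gave 0 to 1 higher and 0 to 1 lower, other conjugating enzymes 1 to 4 and 1 to 4, and regulators 3 to 7 and 1 to 2. Nr0b2 ran from −1.06 to −0.66. Differences of uncalled members changed sign: Ugt2b37 (−0.051 to 2.24), Ugt2b38 (−1.11 to 0.29), Ugt2a3 (−0.14 to 0.039), Gsta3 (−0.094 to 0.082), Gstk1 (−0.11 to 0.0013), Gstm5 (−0.45 to 0.20), Gstm6 (−0.12 to 0.14), Gstt1 (−0.059 to 0.17) and Gstt2 (−0.29 to 0.065). No called member changed sign in any of these fits. Members below about 10 CPM rest on few counts, and an interval that spans 0 does not show equal levels.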
